A study of Mus musculus with 6 samples.

Results

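The genes described here are 40 components of the core autophagy and autophagosome fusion machinery, chosen by symbol from a list that runs from the kinases that start autophagy to the tethers that join a finished autophagosome to a lysosome. All 40 were found, 1 entry each, among the 46450 gene symbols of the deposited table, and all 40 entered the test. The libraries were made from cardiomyocytes, the contractile cells of the heart, of C57BL/6 mice aged 3 months, 3 libraries of genotype TFEB-/- and 3 wild type (WT). TFEB is a transcription factor known for switching on lysosomal and autophagy genes, and no treatment or further allele is named for either group. How the deletion was made, the sex of the mice, and whether each library came from its own animal are not given in the sources used here, so p-values measure the spread between these libraries.

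Autophagy wraps part of the cytoplasm in a double membrane, the autophagosome, and delivers it to the lysosome for breakdown. The ULK1 kinase complex starts the process, the VPS34 lipid kinase complex marks the growing membrane with the lipid PI3P, ATG9 and ATG2 proteins supply lipid, and a pair of ubiquitin-like conjugation systems attach ATG8 proteins such as LC3 to it. SNARE proteins and the HOPS tethering complex then fuse autophagosome and lysosome. Heart muscle cells rarely divide and rely on this route to clear worn organelles.

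Values are CPM, counts scaled to a common library total, deposited as whole numbers, so each is known to within 0.5 CPM. Tfeb itself was at 6, 5 and 7 CPM in TFEB-/- libraries and at 17, 30 and 23 CPM in WT libraries (log2 fold change −1.85, SE 0.24, limma adjusted p = 0.0267, exact permutation p = 0.1, the smallest that 3 against 3 allow). That call was lost when any 1 library but WT 1 was left out (limma adjusted p = 0.0589 to 0.109), and kept in each such case after the values were rescaled by median ratio (0.00908 to 0.0312). The cardiomyocyte markers, all 8 detected, summed to 57251 to 76493 CPM in TFEB-/- and 47448 to 65561 CPM in WT libraries. The 7 macrophage and leukocyte markers summed to 35 to 41 CPM in TFEB-/- and 16 to 25 CPM in WT libraries, with Ptprc at 0 throughout. The 8 endothelial markers summed to 215 to 238 and 223 to 327 CPM, the 7 fibroblast markers to 112 to 150 and 98 to 120 CPM, and the 6 smooth muscle and pericyte markers to 298 to 385 and 223 to 268 CPM, TFEB-/- first. Of the last 6, Acta2 was at 161, 233 and 185 CPM in TFEB-/- and 66, 118 and 70 CPM in WT libraries. Acta2, Cspg4 and Tagln had positive log2 fold changes (1.22, 1.06 and 0.08). Those of Myh11, Rgs5 and Pdgfrb were negative (−0.15, −0.28 and −0.25). The 5 red cell markers summed to 6 to 10 CPM in TFEB-/- and 5 to 35 CPM in WT libraries, with Alas2 at 0 throughout. Every endothelial marker had a negative log2 fold change (median −0.19), and every tested macrophage and leukocyte marker a positive one (median 0.76). Medians were 0.25 for cardiomyocyte, 0.21 for fibroblast, −0.03 for smooth muscle and pericyte and −0.52 for tested red cell markers, beside 0.235 over all genes. On the deposited scale 2 of all these markers were higher at an adjusted p below 0.05 and none lower (limma adjusted p = 0.00336 for the fibroblast gene Pdgfra, at 3 CPM in each TFEB-/- and 2 CPM in each WT library, and 0.0374 for the pericyte gene Cspg4, at 29, 21 and 21 CPM in TFEB-/- and 10, 12 and 11 CPM in WT libraries). After median-ratio scaling Pdgfra was lost (adjusted p = 0.336), Cspg4 still rose (0.0239) and the endothelial gene Cldn5, at 12, 11 and 11 CPM in TFEB-/- and 19, 14 and 16 CPM in WT libraries, fell (log2 fold change −0.73, adjusted p = 0.021). The part of these other cells in the values that follow was not tested.

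None of the 40 genes passed the threshold in TFEB-/- against WT cardiomyocytes, in either direction (limma, adjusted p below 0.05). Over all 12437 tested genes 4.44% passed, 3.92% higher and 0.523% lower. Of those 552 genes, 164 had, like Pdgfra, the same rounded value in every library of each group, so that their measured spread was 0. At an unadjusted p below 0.05 there were 12 genes of the 40 higher and 0 lower, against 21.1% and 2.3% of all genes. In those same 12 genes every TFEB-/- library lay above every WT library, and in none of the 40 did every TFEB-/- library lie below. That is 30.0% of the list, beside 21.2% of all genes without overlap in the higher direction and 2.28% in the lower. A positive log2 fold change was found in 34 of the 40 genes and in 74.3% of all tested genes. The list's median log2 fold change was 0.27 and that of all genes 0.235 (log2(CPM + 0.5) scale), with 22 of the 40 above 0.235. In RNA from a mixed preparation, fewer cells of a type and less RNA per cell cannot be told apart.

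**Figure D1:**
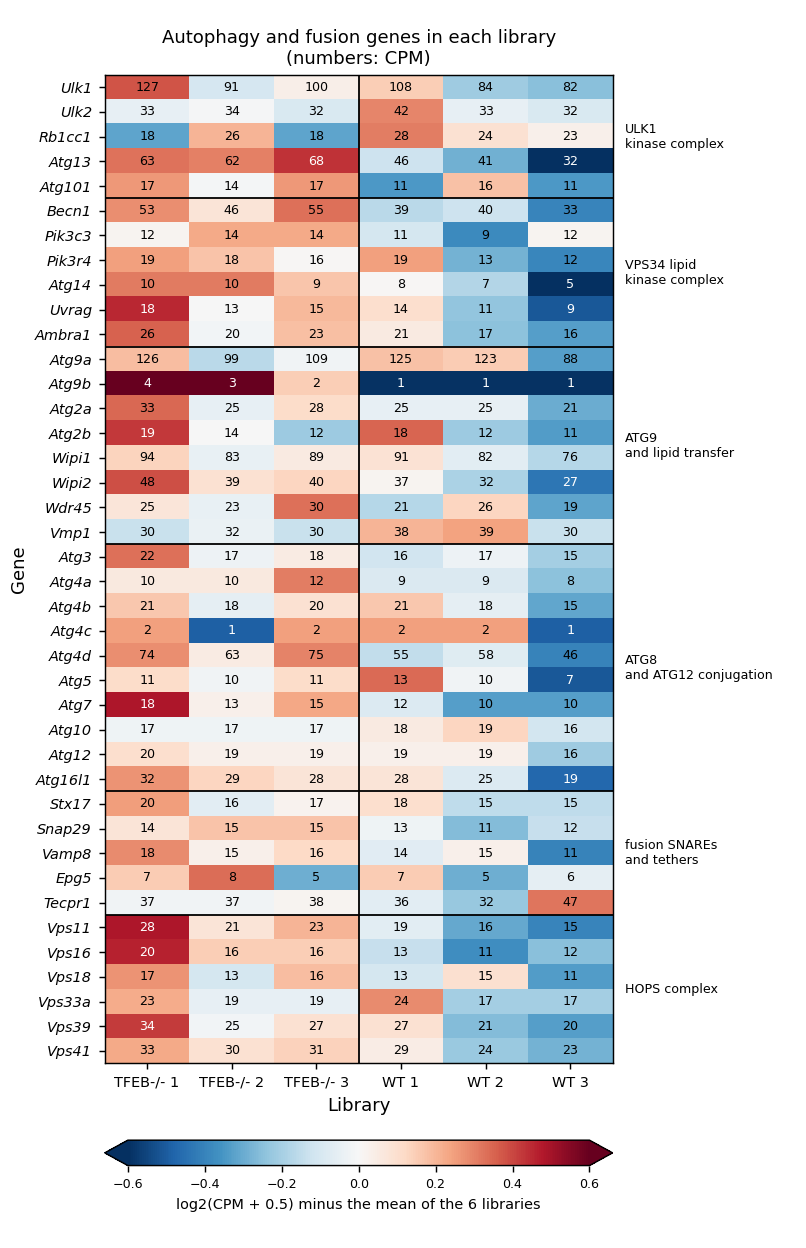
CPM of the 40 genes (rows, grouped by role) in the 3 TFEB-/- and 3 WT libraries (columns). Numbers are CPM and colour is log2(CPM + 0.5) minus the mean of the 6 libraries, so the 3 TFEB-/- columns of Atg13 are red (62 to 68 CPM) and its 3 WT columns blue (32 to 46 CPM).

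The scale of the libraries differed between the genotypes on average, with TFEB-/- 2 and WT 1 nearly level. Transcripts of the mitochondrial genome took 22.2%, 30.3% and 25.3% of the TFEB-/- libraries, against 30.7%, 33.9% and 44.6% of the WT libraries (difference −10.5 percentage points, exact permutation p = 0.1), and the difference was −6.39 points without WT 3. Summed over the 40 genes, the deposited values came to 1253, 1078 and 1147 CPM in TFEB-/- libraries and 1109, 1004 and 882 CPM in WT libraries. The library with the smallest mitochondrial share, TFEB-/- 1, was the highest of its group in 23 genes, and the library with the largest share, WT 3, was the lowest of its group in 30. When each library was rescaled by its median ratio to all genes, the sums became 1058, 1060 and 1079 in TFEB-/- and 1090, 1074 and 1079 in WT libraries. The groups overlapped in the sum on both scales, with TFEB-/- 2 below WT 1 on each. After this scaling the list's median was 0.04 and that of all genes 0.01. Groups without overlap were then 8 genes higher and 6 lower in TFEB-/-, beside 14.3% and 11.8% of all genes, and again 0 of the 40 passed, against 3.87% of all genes higher and 1.61% lower (5.48% together). An unadjusted p below 0.05 was reached by 4 genes higher and 4 lower, against 22.3% of all genes.

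**Figure D2:**
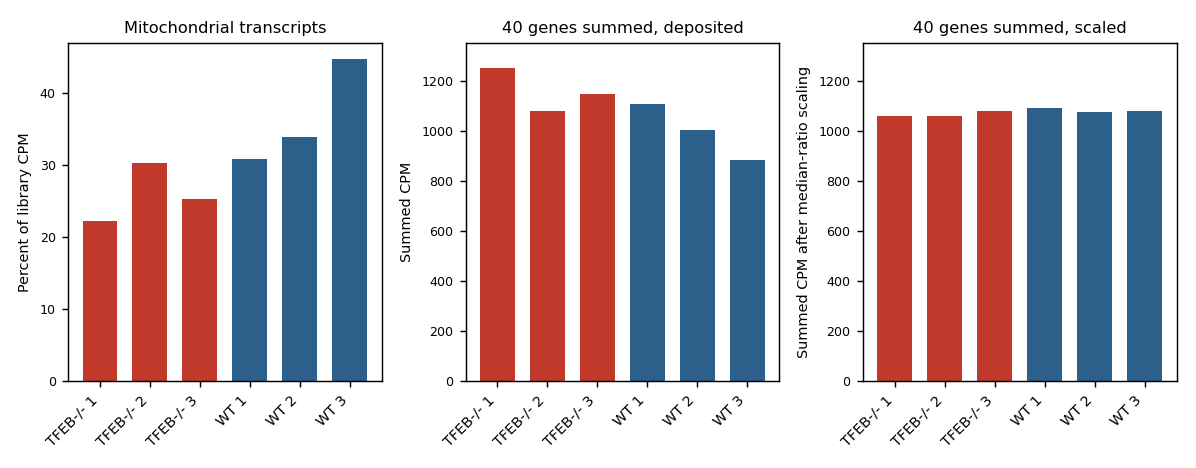
Share of mitochondrial-genome transcripts (percent), and the 40 genes summed on the deposited CPM scale and after median-ratio scaling, for each TFEB-/- and WT library (bars, 1 per library). The deposited sums run from 882 to 1253 CPM and the scaled sums from 1058 to 1090.

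TFEB is known to bind a palindromic E-box, CACGTG, which in longer form is the core of the CLEAR element found near many lysosomal genes. Promoter windows of 300 bases, 250 before and 50 after an annotated start (RefSeq, GRCm38.p6), were matched by symbol for 32 of the 40 genes, in 36 windows. CACGTG, which reads the same on both strands, was found in 6 of the 32 genes (18.75%) and in 8.09% of the 27025 genes with a window. TCACGTGA, which contains it, was found in 3 of the 32 (9.375%) and in 1.125% of all genes with a window. The CLEAR palindrome of 10 letters, TCACGTGA with G before and C after it, was found in 2 of the 32 (6.25%), Vps16 and Vps33a, and in 0.37% of all genes with a window. These counts describe letters in the windows and show no binding. The windows of Atg7 and Atg14 lie around RefSeq starts inside the GENCODE spans of these genes. The 6 windows are printed because they hold the letters TFEB is known to bind, and capitals mark CACGTG.
Vps16 (chr2:130424070-130424369, plus strand): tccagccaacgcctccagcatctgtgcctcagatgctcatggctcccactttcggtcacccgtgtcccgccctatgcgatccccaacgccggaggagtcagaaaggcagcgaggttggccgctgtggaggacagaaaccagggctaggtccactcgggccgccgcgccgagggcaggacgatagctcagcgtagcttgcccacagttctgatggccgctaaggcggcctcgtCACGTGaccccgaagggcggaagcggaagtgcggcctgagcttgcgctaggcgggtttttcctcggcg
Vps33a (chr5:123572966-123573265, minus strand): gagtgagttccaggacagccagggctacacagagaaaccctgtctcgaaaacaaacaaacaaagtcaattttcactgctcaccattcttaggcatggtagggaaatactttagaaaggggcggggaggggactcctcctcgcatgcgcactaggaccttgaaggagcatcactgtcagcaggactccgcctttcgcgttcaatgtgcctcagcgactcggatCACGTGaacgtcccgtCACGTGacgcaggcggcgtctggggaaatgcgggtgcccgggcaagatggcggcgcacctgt
Atg3 (chr16:45158579-45158878, plus strand): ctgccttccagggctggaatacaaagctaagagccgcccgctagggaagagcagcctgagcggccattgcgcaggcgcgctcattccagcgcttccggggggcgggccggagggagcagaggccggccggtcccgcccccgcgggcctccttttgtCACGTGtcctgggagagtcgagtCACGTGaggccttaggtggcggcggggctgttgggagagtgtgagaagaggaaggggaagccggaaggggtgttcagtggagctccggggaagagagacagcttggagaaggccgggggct
Atg7 (chr6:114670846-114671145, plus strand): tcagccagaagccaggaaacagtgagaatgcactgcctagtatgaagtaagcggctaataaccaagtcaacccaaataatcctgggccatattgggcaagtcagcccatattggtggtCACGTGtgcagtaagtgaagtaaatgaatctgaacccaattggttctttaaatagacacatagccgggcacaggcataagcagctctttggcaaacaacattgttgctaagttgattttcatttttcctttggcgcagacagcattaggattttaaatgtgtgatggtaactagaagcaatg
Atg5 (chr10:44268089-44268388, plus strand): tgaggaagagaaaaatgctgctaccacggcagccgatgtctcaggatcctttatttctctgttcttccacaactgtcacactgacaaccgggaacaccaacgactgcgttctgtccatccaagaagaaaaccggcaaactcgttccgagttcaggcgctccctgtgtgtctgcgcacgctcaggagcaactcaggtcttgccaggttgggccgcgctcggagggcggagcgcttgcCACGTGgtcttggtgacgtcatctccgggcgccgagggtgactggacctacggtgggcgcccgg
Atg14 (chr14:47568385-47568684, minus strand): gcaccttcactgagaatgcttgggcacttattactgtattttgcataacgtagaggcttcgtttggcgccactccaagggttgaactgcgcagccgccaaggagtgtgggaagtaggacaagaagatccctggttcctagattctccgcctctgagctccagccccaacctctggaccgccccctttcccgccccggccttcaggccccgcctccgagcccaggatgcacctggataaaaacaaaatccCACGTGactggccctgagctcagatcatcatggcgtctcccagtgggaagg

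The 6 genes with an E-box had log2 fold changes from 0.08 to 0.53, all positive, and after median-ratio scaling Vps33a and Atg5 were negative (−0.15 and −0.10). Vps16 was at 20, 16 and 16 CPM in TFEB-/- libraries and at 13, 11 and 12 CPM in WT libraries. Vps33a, which also holds the longer palindrome, was at 23, 19 and 19 CPM in TFEB-/- and at 24, 17 and 17 CPM in WT libraries. Every TFEB-/- value of Vps16 lay above every WT value, and those of Vps33a overlapped. Atg3, which like Vps33a holds a pair of E-boxes, was at 22, 17 and 18 CPM in TFEB-/- and 16, 17 and 15 CPM in WT libraries, with WT 2 level with TFEB-/- 2 at 17. Of the remaining windows, Atg7 and Atg14 belong to genes without overlap between the groups and Atg5 to a gene with it. None of the 6 had all TFEB-/- libraries below the WT libraries, while 2.28% of all tested genes, Tfeb among them, did. Over all tested genes 74.3% had a positive log2 fold change and 21.2% lay higher without overlap.

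**Figure D3:**
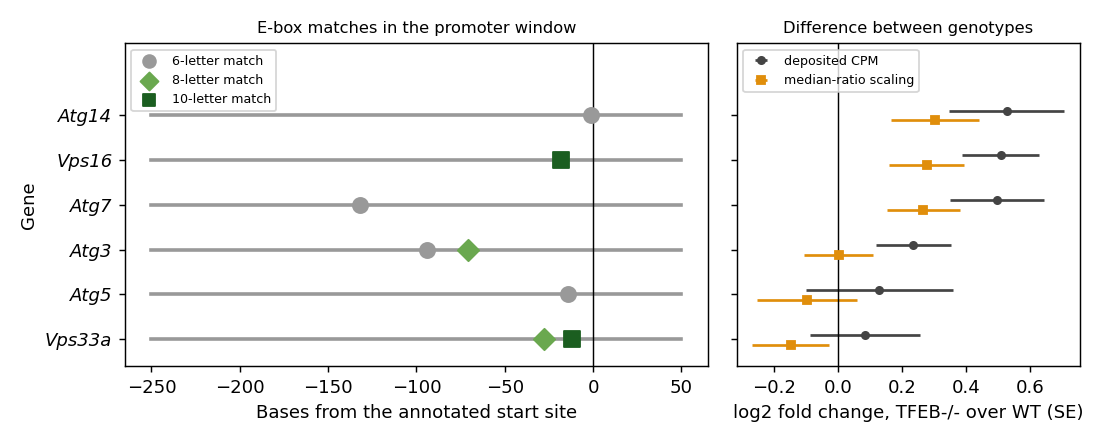
Left, positions of E-box matches in bases from the annotated start in the promoter windows of 6 genes, by the length of the match. Right, log2 fold change of TFEB-/- over WT with its SE on the deposited scale and after median-ratio scaling. Vps16 and Vps33a both hold the 10-letter match, at −18 and −12 bases, and have log2 fold changes of 0.51 and 0.08.

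In the ULK1 complex 3 of 5 genes had a positive log2 fold change, with a median of 0.21, and 0 of 5 passed. Atg13, the adaptor that ties the kinase to its scaffold (ENSMUSG00000027244; GRCm38 chromosome 2, 91674618 to 91710576, minus strand), was at 63, 62 and 68 CPM in TFEB-/- libraries and at 46, 41 and 32 CPM in WT libraries. The lowest TFEB-/- library was well above the highest WT library. Its means were 64.3 ± 3.21 and 39.7 ± 7.09 CPM (SD, n = 3 each), a ratio of 1.62 and a log2 fold change of 0.71 (SE 0.15, limma adjusted p = 0.0748). After median-ratio scaling it was 0.47 (SE 0.11, adjusted p = 0.0538), with the groups still apart. Atg13 passed in 5 of 23 alternatives, among them a filter of 5 CPM (adjusted p = 0.0346) and CPM without mitochondrial transcripts (adjusted p = 0.0352), within a range of 0.0116 to 0.224 over all 23. It was positive in all 23.

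Rb1cc1, the FIP200 scaffold of the same complex (plus strand of chromosome 1, 6206197 to 6276648), was at 18, 26 and 18 CPM in TFEB-/- and 28, 24 and 23 CPM in WT libraries, so TFEB-/- 2 lay among the WT libraries. Its log2 fold change was −0.29 (SE 0.18, limma adjusted p = 0.377), and −0.52 after median-ratio scaling (SE 0.19, adjusted p = 0.164), where every TFEB-/- library lay below every WT library. On that scale Rb1cc1 was at 25.57 in TFEB-/- 2 and 25.68 in WT 2, closer than the 0.5 CPM to which each deposited value is known. Without TFEB-/- 2 and with that scaling it passed as lower (adjusted p = 0.0303), the only setting of 23 in which it did. The kinase Ulk1 was at 127, 91 and 100 CPM in TFEB-/- and 108, 84 and 82 CPM in WT libraries, with an overlap. Its paralog Ulk2 was at 33, 34 and 32 CPM in TFEB-/- and 42, 33 and 32 CPM in WT libraries, and only WT 1 stood out. After median-ratio scaling every TFEB-/- library of Ulk2, at 27.9 to 33.4, lay below every WT library, at 35.3 to 41.3 (adjusted p = 0.13 in limma). Atg101, which stabilises Atg13, was at 17, 14 and 17 CPM in TFEB-/- and 11, 16 and 11 CPM in WT libraries (log2 fold change 0.34, SE 0.18, adjusted p = 0.302). The log2 fold changes of Ulk1 and Ulk2 were 0.21 and −0.10 (SE 0.18 and 0.12), and after scaling −0.03 and −0.34.

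All 6 genes of the VPS34 complex had positive log2 fold changes, as 74.3% of all genes did, from 0.285 to 0.53 with a median of 0.39, and 0 of 6 passed. Becn1, which encodes the scaffold Beclin 1 (chromosome 11, 101285952 to 101302286, minus strand), was at 53, 46 and 55 CPM in TFEB-/- and 39, 40 and 33 CPM in WT libraries. The groups did not overlap on either scale. Its log2 fold change was 0.46 (SE 0.11, limma adjusted p = 0.101), and 0.22 (SE 0.10, adjusted p = 0.25) after scaling. Becn1 shares 3104 exonic bases with Cntd1 on the opposite strand, which was listed at 0. Atg14, the subunit that directs VPS34 to autophagy, was at 10, 10 and 9 CPM in TFEB-/- and 8, 7 and 5 CPM in WT libraries, also without overlap on either scale (log2 fold change 0.53, SE 0.18, adjusted p = 0.179).

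The catalytic subunit Pik3c3 was at 12, 14 and 14 CPM in TFEB-/- and 11, 9 and 12 CPM in WT libraries, the groups meeting at 12. Its membrane-anchoring partner Pik3r4, known as VPS15, was at 19, 18 and 16 CPM in TFEB-/- and 19, 13 and 12 CPM in WT libraries. Uvrag, which replaces Atg14 in the endosomal form of the complex, was at 18, 13 and 15 CPM in TFEB-/- and 14, 11 and 9 CPM in WT libraries. Ambra1, a regulator of Beclin 1, was at 26, 20 and 23 CPM in TFEB-/- and 21, 17 and 16 CPM in WT libraries. In each of these 4 a single WT library, WT 1 or WT 3, reached into the TFEB-/- range. Their log2 fold changes were 0.05 to 0.20 after median-ratio scaling.

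**Figure D4:**
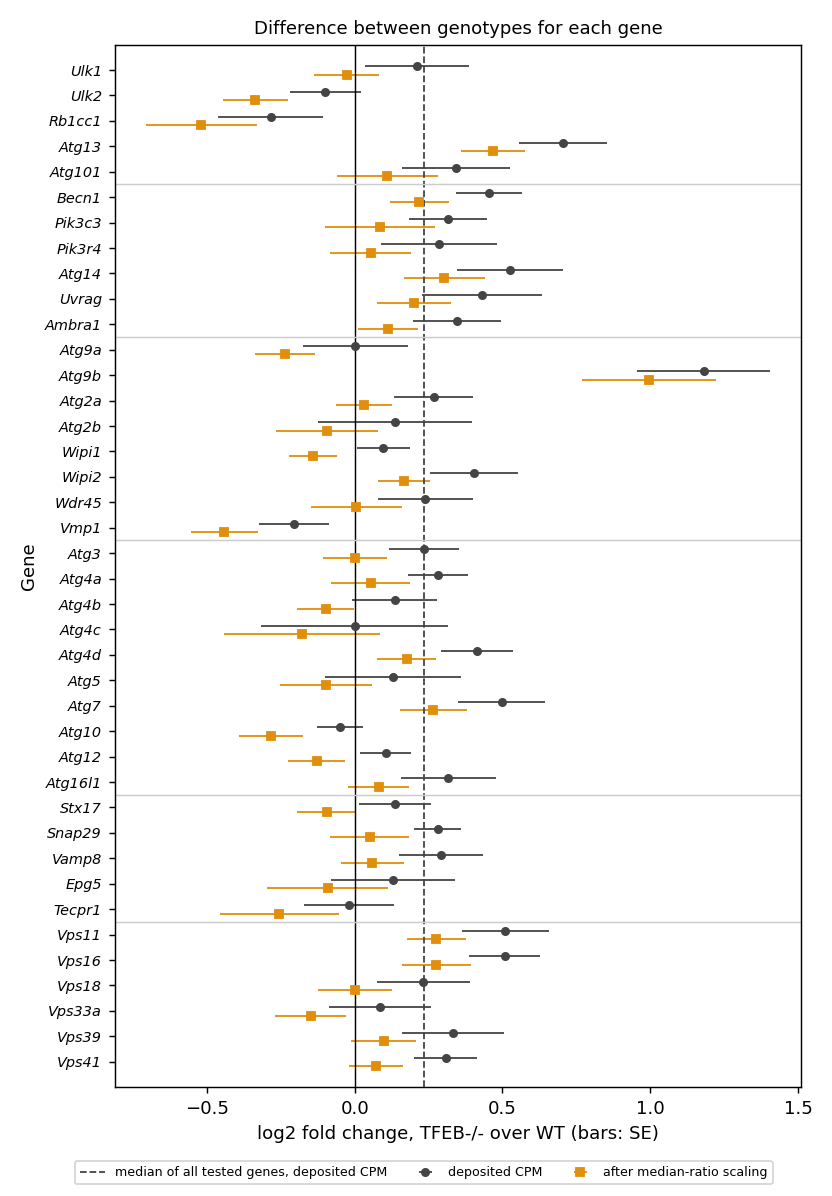
log2 fold change of TFEB-/- over WT for each of the 40 genes, with bars of 1 SE, on the deposited CPM scale (circles) and after median-ratio scaling (squares). The dashed line is the median of all tested genes on the deposited scale, 0.235, and most circles lie near it while Atg9b and Atg13 lie farthest above and Rb1cc1 and Vmp1 farthest below.

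Of the 8 genes for ATG9, lipid transfer and membrane growth 7 had a positive log2 fold change, with a median of 0.19, and 0 passed. Atg9a, the abundant lipid scramblase of autophagosome growth, was at 126, 99 and 109 CPM in TFEB-/- and 125, 123 and 88 CPM in WT libraries, fully overlapping (log2 fold change 0.00, 95% interval −0.46 to 0.46). After scaling every TFEB-/- library lay below every WT library (102.1 ± 4.55 and 120.7 ± 12.1, log2 fold change −0.24, SE 0.10, limma adjusted p = 0.2345). Atg9b (ENSMUSG00000038295; chromosome 5, 24384181 to 24392143, minus strand) was at 4, 3 and 2 CPM in TFEB-/- libraries and at 1 CPM in each WT library. The groups did not overlap, though the nearest libraries were a single rounding step apart. Its log2 fold change of 1.18 (SE 0.22, adjusted p = 0.061) was the largest of the 40, and 0.997 (adjusted p = 0.0513) after scaling. Atg9b passed in 4 of 21 alternatives, with adjusted p from 0.0219 to 0.169, while at 5 CPM as the minimum it dropped out of the test. One passing setting left out TFEB-/- 3 (adjusted p = 0.0219). Atg9b shares 294 exonic bases with the endothelial nitric oxide synthase gene Nos3 on the opposite strand, and whether strand was used in counting is not given. Nos3 was at 15, 15 and 19 CPM in TFEB-/- and 19, 16 and 16 CPM in WT libraries (log2 fold change −0.06, adjusted p = 0.802).

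Vmp1, an ER scramblase needed for autophagosomes to form (minus strand of chromosome 11, 86583865 to 86683836), was at 30, 32 and 30 CPM in TFEB-/- and 38, 39 and 30 CPM in WT libraries. WT 3 alone reached the TFEB-/- range. Its log2 fold change was −0.21 (SE 0.12, limma adjusted p = 0.333), and after scaling −0.44 (SE 0.11, adjusted p = 0.0721) with every TFEB-/- library below every WT library. It was negative in all 23 alternatives and passed in 1, array weights, which gives libraries unequal weight (adjusted p = 0.04645). Vmp1 shares 92 exonic bases with the miRNA gene Mir21a on the same strand. Mir21a was listed at 0, but poly(A) libraries are not made to measure miRNAs, so its level is not known.

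The lipid transfer gene Atg2a was at 33, 25 and 28 CPM in TFEB-/- and 25, 25 and 21 CPM in WT libraries, and its paralog Atg2b at 19, 14 and 12 CPM in TFEB-/- and 18, 12 and 11 CPM in WT libraries. The groups of Atg2a met at 25 and those of Atg2b overlapped. Wipi1, which binds PI3P, was at 94, 83 and 89 CPM in TFEB-/- and 91, 82 and 76 CPM in WT libraries (log2 fold change 0.10, 95% interval −0.14 to 0.33). Wipi2, the PI3P reader that recruits Atg16l1, was at 48, 39 and 40 CPM in TFEB-/- and 37, 32 and 27 CPM in WT libraries, without overlap (log2 fold change 0.40, SE 0.15, limma adjusted p = 0.2). On the scaled values Wipi1 lay lower and Wipi2 higher in TFEB-/-, each without overlap (log2 fold changes −0.14 and 0.17, adjusted p = 0.357 and 0.319). Wdr45, also called WIPI4, was at 25, 23 and 30 CPM in TFEB-/- and 21, 26 and 19 CPM in WT libraries.

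Of the 10 conjugation genes 8 had a positive log2 fold change, with a median of 0.18, and 0 passed. Atg7, the E1-like enzyme shared by both conjugation systems (plus strand of chromosome 6, 114643097 to 114860614), was at 18, 13 and 15 CPM in TFEB-/- and 12, 10 and 10 CPM in WT libraries, without overlap on either scale (log2 fold change 0.50, SE 0.15, limma adjusted p = 0.142). Atg4d, of the protease family that trims and releases ATG8 proteins, was at 74, 63 and 75 CPM in TFEB-/- and 55, 58 and 46 CPM in WT libraries (log2 fold change 0.41, SE 0.12, adjusted p = 0.14). Its groups were apart on the deposited scale and met after scaling. Atg4d shares 1405 exonic bases with Kri1 on the opposite strand, at 13, 9 and 10 CPM in TFEB-/- and 11, 8 and 8 CPM in WT libraries. Atg4a was at 10, 10 and 12 CPM in TFEB-/- and 9, 9 and 8 CPM in WT libraries, 1 rounding step apart at the closest, and its near copy Atg4a-ps, 99.3% identical over 2115 bases, was listed at 0. Atg4b, the main LC3 protease, was at 21, 18 and 20 CPM in TFEB-/- and 21, 18 and 15 CPM in WT libraries. Atg4c stayed at 1 to 2 CPM in every library of both groups.

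Each branch has its own E2-like enzyme. Atg3, which hands LC3 to its lipid, had a log2 fold change of 0.23 (SE 0.12) and of 0.00 after scaling. Atg10, which hands Atg12 to Atg5, was at 17 CPM in each TFEB-/- library and at 18, 19 and 16 CPM in WT libraries. After scaling it lay lower in every TFEB-/- library (15.7 ± 1.21 and 19.2 ± 1.36, log2 fold change −0.28, SE 0.11, limma adjusted p = 0.183). The ubiquitin-like Atg12 was at 20, 19 and 19 CPM in TFEB-/- and 19, 19 and 16 CPM in WT libraries, and its acceptor Atg5 at 11, 10 and 11 CPM in TFEB-/- and 13, 10 and 7 CPM in WT libraries. Atg16l1, which places that conjugate on the membrane, was at 32, 29 and 28 CPM in TFEB-/- and 28, 25 and 19 CPM in WT libraries, the groups meeting at 28.

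**Figure D5:**
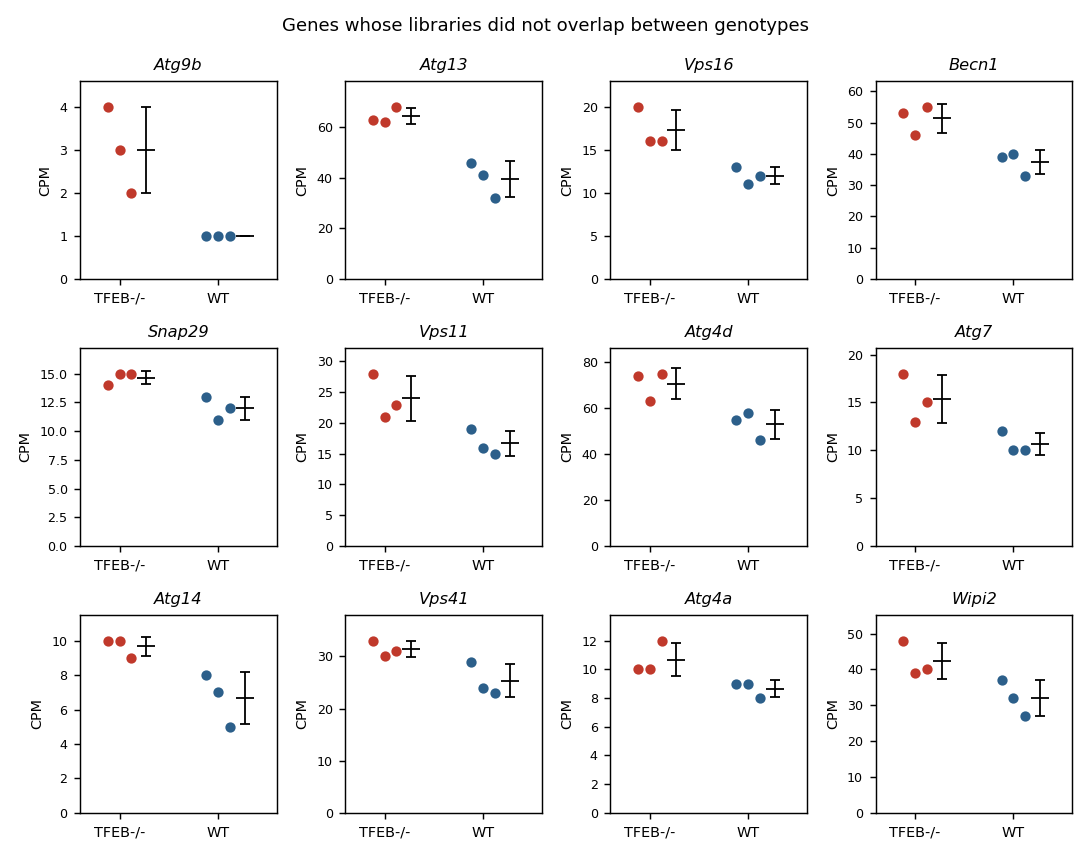
CPM per library (points) with mean and SD (bars) in TFEB-/- and WT cardiomyocytes for the 12 genes whose libraries did not overlap on the deposited scale. All 12 lie higher in TFEB-/-, with Atg9b at 2 to 4 against 1 CPM and Atg13 at 62 to 68 against 32 to 46 CPM.

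Of the 5 fusion SNAREs and tethers 4 had a positive log2 fold change, with a median of 0.14, and 0 passed. Snap29, the cytosolic SNARE of the fusion complex, was at 14, 15 and 15 CPM in TFEB-/- and 13, 11 and 12 CPM in WT libraries (log2 fold change 0.28, SE 0.08, limma adjusted p = 0.13), and after scaling the groups overlapped widely (log2 fold change 0.05, adjusted p = 0.86). Stx17, the SNARE on the autophagosome, was at 20, 16 and 17 CPM in TFEB-/- and 18, 15 and 15 CPM in WT libraries, and the lysosomal Vamp8 at 18, 15 and 16 CPM in TFEB-/- and 14, 15 and 11 CPM in WT libraries. Both overlapped. The tether Epg5 was at 7, 8 and 5 CPM in TFEB-/- and 7, 5 and 6 CPM in WT libraries. Tecpr1, a tether that binds PI3P and the Atg12 conjugate, was at 37, 37 and 38 CPM in TFEB-/- and 36, 32 and 47 CPM in WT libraries. WT 3 was its highest library, although WT 3 was the lowest WT library for 30 of the 40 genes.

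All 6 HOPS genes had positive log2 fold changes, from 0.08 to 0.51 with a median of 0.32, and 3 of the 6 had groups without overlap. Over all tested genes 74.3% were positive and 21.2% lay higher without overlap. After median-ratio scaling 5 of the 6 were positive, Vps18 by only 0.0007, beside a median of 0.0053 over all genes. On that scale 2 of the 6 lay higher without overlap, beside 14.3% of all genes. Vps11, a core subunit (chromosome 9, 44347749 to 44361670, minus strand), was at 28, 21 and 23 CPM in TFEB-/- and 19, 16 and 15 CPM in WT libraries, a ratio of 1.44 (log2 fold change 0.51, SE 0.15, limma adjusted p = 0.133). Vps16, the core subunit that holds Vps33a (chromosome 2, 130424339 to 130444269, plus strand), had the same ratio of 1.44 (log2 fold change 0.51, SE 0.12, adjusted p = 0.0926). Both stayed apart after scaling, with log2 fold changes of 0.28 each (adjusted p = 0.163 for Vps11 and 0.224 for Vps16). The scaled values of Vps16 were 15.06 in TFEB-/- 3 and 14.68 in WT 3, closer than the 0.5 CPM to which each deposited value is known. Vps41, a subunit particular to HOPS, was at 33, 30 and 31 CPM in TFEB-/- and 29, 24 and 23 CPM in WT libraries, apart on the deposited scale only. Vps39 was at 34, 25 and 27 CPM in TFEB-/- and 27, 21 and 20 CPM in WT libraries, and Vps18 at 17, 13 and 16 CPM in TFEB-/- and 13, 15 and 11 CPM in WT libraries. Vps33a, the SNARE-binding subunit, had a log2 fold change of 0.08 (95% interval −0.36 to 0.53). No difference between subunits was tested.

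Levels of paralogs were compared per length, as CPM per kb of the longest coding transcript (GENCODE M21), on the assumption that the deposited values were not already divided by length. Atg9a was at 26.4 ± 3.24 CPM per kb in TFEB-/- and 26.55 ± 4.93 in WT libraries, and Atg9b at 0.769 ± 0.256 in TFEB-/- and 0.256 ± 0 in WT libraries, so Atg9a was the main form in both groups. Wipi1 led the PI3P readers at 26.6 ± 1.65 CPM per kb in TFEB-/- and 24.9 ± 2.26 in WT libraries, ahead of Wdr45 at 16.2 ± 2.24 and 13.7 ± 2.24 and of Wipi2 at 8.19 ± 0.954 and 6.19 ± 0.967. Ulk1 was at 20.3 ± 3.59 CPM per kb in TFEB-/- and 17.5 ± 2.78 in WT libraries, and Ulk2 at 5.75 ± 0.174 in TFEB-/- and 6.21 ± 0.959 in WT libraries. Among the Atg4 proteases Atg4d was highest per length (11.9 ± 1.12 CPM per kb in TFEB-/- and 8.91 ± 1.05 in WT libraries) and Atg4c lowest. Atg4a and Atg4b did not differ beyond their spread, at 4.85 ± 0.525 and 4.71 ± 0.366 CPM per kb in TFEB-/- libraries and at 3.94 ± 0.262 and 4.31 ± 0.719 in WT libraries. The order of these paralogs within each family was the same in both groups, except that Atg4a and Atg4b changed places.

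Genes that act beside this machinery were counted in the same way. Of 18 ATG8 proteins and autophagy receptors, 0 passed in limma in either direction and 3 had an unadjusted p below 0.05, with a median log2 fold change of 0.25. Over all tested genes 4.44% passed and 23.3% had an unadjusted p below 0.05, in either direction. The most abundant was the receptor Sqstm1, or p62, which links ubiquitin-tagged cargo to LC3. It was at 557, 494 and 677 CPM in TFEB-/- and 311, 360 and 372 CPM in WT libraries (log2 fold change 0.72, SE 0.15, adjusted p = 0.0697), with no overlap. Map1lc3a, an LC3 gene, was at 468, 384 and 407 CPM in TFEB-/- and 299, 364 and 269 CPM in WT libraries (log2 fold change 0.44, SE 0.14, adjusted p = 0.169). Of 22 upstream and accessory regulators 0 passed and 4 had an unadjusted p below 0.05 (median 0.28), and Trp53inp2 and Sh3glb1, the most abundant, had log2 fold changes of 0.18 and −0.15. Of 24 other tethers, SNAREs and Rab proteins 0 passed and 3 had an unadjusted p below 0.05 (median 0.24), and Rab7 and Plekhm2 had log2 fold changes of 0.15 each. After median-ratio scaling 0 genes of these 3 lists passed, and Rab7, Plekhm2 and Trp53inp2 turned to log2 fold changes of −0.09, −0.09 and −0.06. On that scale Sqstm1 was at 0.48, Map1lc3a at 0.20 and Sh3glb1 at −0.39 (limma adjusted p = 0.177, 0.383 and 0.185).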

How the data were processed

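The 6 libraries are poly(A) RNA-seq. According to the labels' protocols, 400 ng of TRIzol-extracted total RNA went into TruSeq Stranded mRNA libraries, read as pairs of 75 bases. The deposited values are a score taken to be kallisto CPM from the name of the table: counts scaled by the authors to a library total and rounded, summing to 999505 to 999655. Depth is unknown, so counting intervals are not given. The submitters' processing notes name GRCm38 and, among tools, kallisto, Salmon, STAR, RSEM, edgeR, HISAT2, DESeq2 and StringTie, without versions or roles.

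Of 46517 entries, 26 date-like names were restored through their IDs and values sharing a symbol were summed. Genes at 1 CPM or more in at least 3 libraries (12437) were fitted on log2(CPM + 0.5) with limma 3.58.1 under R 4.3.3, using genotype only and eBayes with trend. Tests were two-sided with Benjamini-Hochberg adjustment over all tested genes and a threshold of 0.05. Fold changes of low genes are understated on this scale. Median-ratio scaling divided each library by its median ratio to the gene-wise geometric mean. On simulated data rounded in the same way, the fit recovered most 4-fold but few 1.5-fold changes, and its false calls exceeded the nominal rate in every simulation; most were genes under 5 CPM with equal rounded values within each group. Positions and lengths come from GENCODE M21. The genes and lists were chosen with earlier results of these data known; every listed gene is named, and of each further list the 2 most abundant where none passed. Rescaling without 1 library was added after seeing the data.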

Additional observations from a re-analysis of the deposited data

How the results depend on the processing

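No gene of the list passed as higher with the replicate block, either other pseudocount, no filter or median-ratio scaling. The count was 1 with a filter of 5 CPM, with that filter plus median-ratio scaling and without mitochondrial transcripts (Atg13 in each), 1 with quantile normalization (Atg9b), 2 with robust hyperparameters and 12 with array weights. It was 0 to 1 when 1 library was left out (Atg9b, without TFEB-/- 3). Over all tested genes the higher count was 571 of 8873 with a filter of 5 CPM, and 368 of 8873 with median-ratio scaling added. The all-gene count was 460 of 12424 without mitochondrial transcripts. Of 12437 genes it was 397 with quantile normalization, 780 with robust hyperparameters, 2241 with array weights and 272 without TFEB-/- 3. Lower genes of the list numbered 1 with array weights (Vmp1) and 1 with median-ratio scaling and without TFEB-/- 2 (Rb1cc1), and 0 in the other settings. The list's median log2 fold change was 0.0412 with median-ratio scaling at either filter, 0.0552 without mitochondrial transcripts, 0.0182 with quantile normalization and 0.16 to 0.33 when 1 library was left out. With median-ratio scaling it was 0.0461, 0.0383 and 0.0358 without TFEB-/- 1, 2 and 3, and 0.0279, 0.0301 and 0.0202 without WT 1, 2 and 3. Over all genes, the higher count was 159 with the block, 780 with robust hyperparameters, 2241 with array weights and 248 to 516 when 1 library was left out. With median-ratio scaling it was 268 without TFEB-/- 1, 80 without TFEB-/- 3 and 289 without WT 3. The lower count was 200 with median-ratio scaling and 220 with a filter of 5 CPM added, 188 without mitochondrial transcripts, 172 with quantile normalization, 26 with the block and 338 with array weights. With median-ratio scaling it was 95, 308 and 38 without TFEB-/- 1, 2 and 3, and 95, 121 and 70 without WT 1, 2 and 3. The log2 fold change of Tfeb was −1.85 with the block (limma adjusted p = 0.112) and −2.05 to −1.65 when 1 library was left out. The difference in mitochondrial share was −13.3 to −6.39 percentage points when 1 library was left out. The cause of these differences was not tested. The sign of the log2 fold change turned in 10 of the 40 genes with median-ratio scaling and in 13 with quantile normalization, none of them past the threshold.

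Replicate numbers are shared by the groups, but same-numbered libraries did not deviate together throughout (correlations of deviations 0.144, −0.049 and 0.088). TFEB-/- 2 correlated weakly with every WT library (0.025, −0.049 and 0.022 with WT 1, 2 and 3). The block result therefore says only that the counts of calls were fewer. Rounding limits genes of a few CPM such as Atg9b and Atg4c most, and with 3 libraries a group a gene that did not pass may still differ.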
